A study of Homo sapiens with 16 samples.

Results

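The genes described here are 8 genes of sulfation, measured in RNA that was pulled down with the RNA-induced silencing complex, RISC, from HEK 293 cells, a line derived from human embryonic kidney. They were taken by symbol from a table of 19077 genes: BPNT1 and IMPAD1 (now BPNT2), PAPSS1 and PAPSS2, SLC35B2 and SLC35B3, and TPST1 and TPST2. All 8 were in the table, and all 8 were among the 17658 genes that passed the filter on low counts in the comparisons between miRNAs. They were chosen because earlier results on these same libraries had put BPNT1 high with mir1271-5p, so all values in that comparison are a description and carry no test.

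The assay, RISC trap, uses a GW182 protein (gene TNRC6A) that acts as a dominant negative: mRNAs bound by the complex and its microRNA (miRNA) stay on it, are precipitated and are sequenced. All 16 libraries came from this assay in HEK 293 cells. There were 2 libraries for each of 6 miRNAs, namely mir1271-5p, mir1180-3p, mir1301-3p, mir550-3p, mir1260a-5p and mir3613-5p. For mir124-3p there were 4, of which 1 has Solid and 3 have Illumina in the title, while the labels give no sequencer for the 12 others. No library without a miRNA is named, so each of these 6 was compared with the mean of the 5 others. These comparisons share most of their libraries and are not independent of one another. The labels of both mir550-3p libraries and of mir1301-3p replicate 2 contain bio. Beyond that, the labels do not say whether libraries of the same miRNA came from separate cultures. The p-values measure the spread between these libraries, which may be technical. In bulk RNA of this kind, fewer cells with a transcript and less of it per cell cannot be told apart, nor can more of an mRNA in the cell and more of it held on the complex.

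Sulfate is put onto proteins, sugars, steroids and drugs from a single activated donor, 3'-phosphoadenosine 5'-phosphosulfate (PAPS). The PAPSS enzymes make PAPS in the cytosol and nucleus, SLC35B2 and SLC35B3 carry it into the Golgi, and sulfotransferases such as TPST1 and TPST2, which modify tyrosines of secreted and membrane proteins, use it there. What remains of the donor, 3'-phosphoadenosine 5'-phosphate (PAP), inhibits sulfotransferases, and phosphatases blocked by lithium remove it: BPNT1 in the cytosol and nucleus, and IMPAD1 in the Golgi.

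The mature forms of 4 of the 6 miRNAs with 2 libraries are given here from RefSeq, 5' to 3'. That of hsa-miR-96-5p, which shares a seed with hsa-miR-1271-5p, is given as well, and that of mir124-3p is not. Bases 2 to 8, the seed that pairs with target mRNAs, are in capitals.
hsa-miR-1271-5p: cUUGGCACcuagcaagcacuca
hsa-miR-96-5p: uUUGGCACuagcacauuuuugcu
hsa-miR-1180-3p: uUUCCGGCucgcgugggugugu
hsa-miR-1301-3p: uUGCAGCUgccugggagugacuuc
hsa-miR-550a-3p: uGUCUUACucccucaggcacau
The mir550-3p libraries are described as 550a in the labels and were matched to the last of these. In GRCh38.p14, hsa-miR-1271-5p lies at chr5:176367960-176367981 on the plus strand, hsa-miR-1180-3p at chr17:19344513-19344534 on the minus strand and hsa-miR-1301-3p at chr2:25328651-25328674 on the minus strand. None of the 6 miRNAs with 2 libraries shares its seed with another of the 6. Outside the 6, seeds are also shared by hsa-miR-1301-3p with hsa-miR-5047, hsa-miR-550a-3p with hsa-miR-200c-5p, and hsa-miR-1260a with hsa-miR-1260b. Sites for these seeds in the mRNAs of the 8 genes were not analysed here.

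Levels are counts per 1000000 (CPM), normalised for library composition over all 16 libraries, and libraries of a miRNA are given in the order replicate 1, replicate 2. CPM were not divided by gene length, so levels are compared between libraries and not between genes. Total counts lay between 7612758 and 26527365, and 3 counts, the limit behind a count of 0, correspond to between 0.113 and 0.394 CPM. The mir1301-3p libraries had 7612758 and 8533543 counts, and their normalisation factors of 1.28 and 1.31 were the highest of the 16. All 9 HEK 293 markers examined were in the table, and their summed level lay between 1011 and 2043 CPM in the 12 libraries of the 6 miRNAs. TNRC6A took 0.665% to 1.49% of the counts in these 12 libraries and 5.11% in the mir124 Solid library. It took at least 3.97% in Illumina replicates 1 and 3 and 1.07% in Illumina replicate 2, which also stood apart from the other two in its counts over all genes.

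BPNT1 was recovered far more with mir1271-5p than with any other miRNA. Its level was 192 and 337 CPM in the mir1271-5p libraries. It was 14.1 and 14.9 CPM with mir1180-3p, 17.5 and 20.0 with mir1260a-5p, 25.1 and 13.3 with mir1301-3p, 24.7 and 22.0 with mir3613-5p, and 41.2 and 25.0 with mir550-3p. Both mir1271-5p libraries lay above the other 10, as for 1.82% of all genes, and these 2 differed from each other by 1.76-fold. The mean was 264 ± 103 CPM (SD, n = 2) with mir1271-5p, and the fitted log2 difference from the other 5 miRNAs was 3.70 ± 0.258 (SE). It was 4.03 without mir1271-5p replicate 1 and 3.29 without replicate 2. The fitted difference compares means of groups on a log scale, so that 1 high group weighs less than in a plain mean of CPM.

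Outside the mir1271-5p libraries BPNT1 varied about as much as the median gene. The highest of the 10 libraries was 3.10 times the lowest, where the median of 11465 genes with a mean of at least 5 CPM was 3.07 times. Over all 12 libraries the same ratio was 25.4 for BPNT1 and 3.30 for the median gene. No difference among the 5 other miRNAs was found for BPNT1 (edgeR quasi-likelihood test over 10 libraries, adjusted p = 0.218). With mir1301-3p the BPNT1 log2 difference of -0.89 was not called in edgeR (adjusted p = 0.0756). It was called lower in DESeq2 (-0.90, adjusted p = 0.0473) and in edgeR with the mir1180-3p libraries out of the reference (-1.23, 0.0241). The mir1271-5p libraries stood in the reference each time. With them out of it, the log2 difference was -0.15 (edgeR adjusted p = 0.756). The mir124-3p libraries lay in the range of these 10, with 20.7 CPM in the Solid library and 19.2, 25.5 and 15.3 CPM in Illumina replicates 1, 2 and 3.

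**Figure D1:**
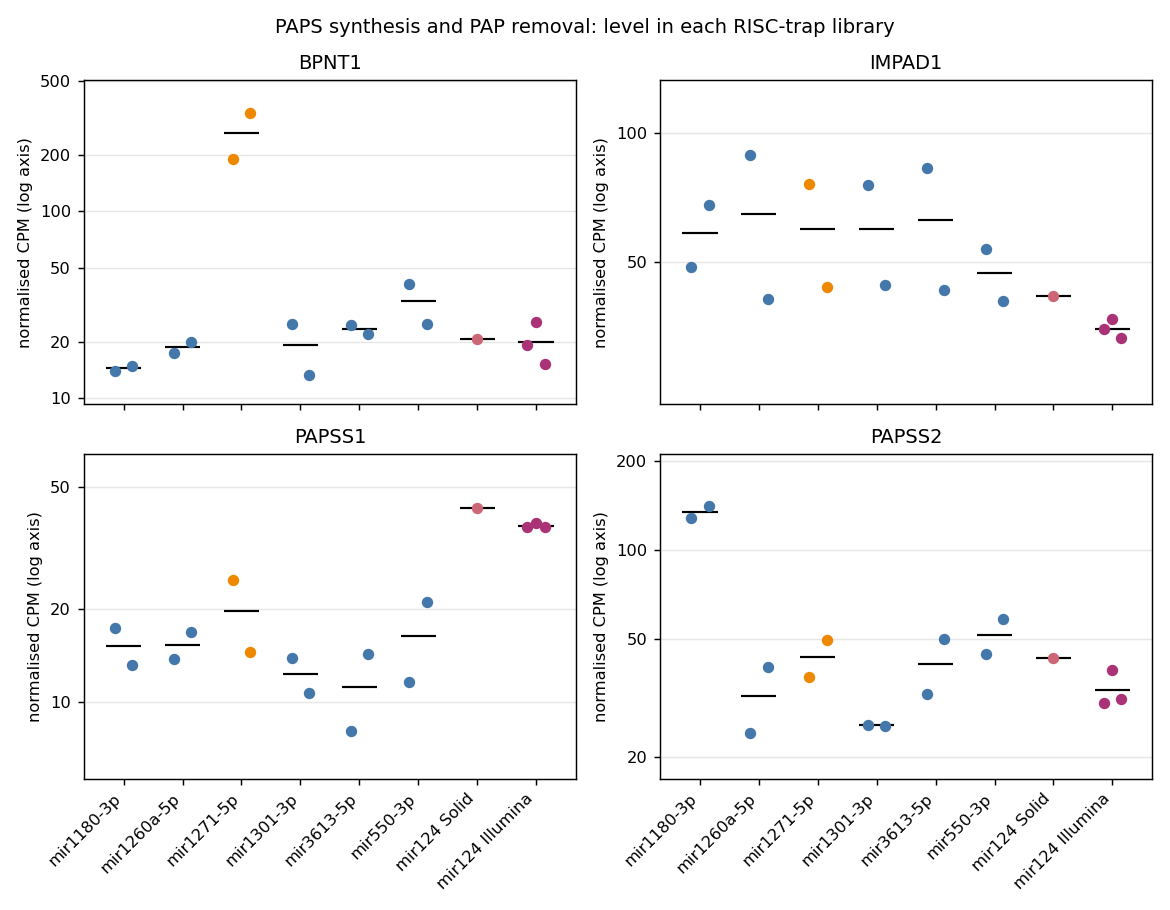
Level of BPNT1, IMPAD1, PAPSS1 and PAPSS2 in each RISC-trap library, in normalised CPM on log axes that differ between panels. Each point is 1 library and each bar the mean of a group. BPNT1 stands at 192 and 337 CPM with mir1271-5p, PAPSS2 at 128 and 140 CPM with mir1180-3p, and PAPSS1 above 36 CPM in the mir124-3p libraries alone.

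With mir1180-3p, BPNT1 was called lower than with the other 5 miRNAs, with a log2 difference of -1.48 ± 0.356 (SE, edgeR adjusted p = 0.0334). This call rests on the mir1271-5p libraries in the reference. With those left out of it, the log2 difference was -0.77 and the adjusted p 0.357. The call was also lost without either mir1180-3p library (adjusted p = 0.305 without replicate 1 and 0.388 without replicate 2), without either mir3613-5p library (0.0656 and 0.0546), without mir550-3p replicate 1 (0.0657) and with upper-quartile scaling (0.0557).

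IMPAD1, the phosphatase that removes PAP in the Golgi, showed no such rise. Its level was 75.8 and 43.6 CPM with mir1271-5p, inside the range of 40.4 to 88.6 CPM over the 12 libraries. It read 48.6 and 67.7 CPM with mir1180-3p, 88.6 and 40.9 with mir1260a-5p, 75.4 and 44.0 with mir1301-3p, 82.6 and 42.9 with mir3613-5p, and 53.6 and 40.4 with mir550-3p. Libraries of the same miRNA differed about as much as the whole set: the highest of the 12 was 2.19 times the lowest, and in 5 of 6 miRNAs replicate 1 was the higher one, by 1.33 to 2.17 times. IMPAD1 was not called in any comparison, and the fitted log2 difference for mir1271-5p was 0.11 ± 0.354 (SE). The mir124-3p libraries read 41.5 CPM in Solid and 34.8, 36.7 and 33.1 CPM in Illumina.

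The PAPS synthases each stood out with a different miRNA. PAPSS2, the synthase with the stronger link to cartilage and to steroid sulfation, was highest with mir1180-3p, at 128 and 140 CPM. It read 24.1 and 40.2 CPM with mir1260a-5p, 37.1 and 49.6 with mir1271-5p, 25.6 and 25.5 with mir1301-3p, 32.6 and 49.8 with mir3613-5p, and 44.6 and 58.6 with mir550-3p. Both mir1180-3p libraries lay above the other 10, as they did for 3.68% of all genes tested. The mean was 134 ± 8.54 CPM (SD, n = 2) against 38.8 ± 11.9 (SD, n = 10), a log2 difference of 1.72 ± 0.262 (SE, edgeR adjusted p = 0.000627). The call held when any 1 of the 12 libraries was left out, with log2 differences between 1.69 and 1.84, and when the mir1271-5p or the mir1301-3p libraries were taken out of the reference (1.78 and 1.58). PAPSS2 and BPNT1 were the genes called among the 8 with mir1180-3p, 1 higher and 1 lower, where 1.92% of all genes were called higher and 0.153% lower.

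With mir1301-3p, PAPSS2 was called lower, by a log2 difference of -1.02 ± 0.321 (SE, edgeR adjusted p = 0.0418), although its libraries overlapped those of mir1260a-5p. The mir1180-3p libraries in the reference carried this call, since without them the log2 difference was -0.70 and the adjusted p 0.111. It was lost without either mir1301-3p library (adjusted p = 0.216 and 0.189), and also without either mir1180-3p or mir550-3p library or mir1260a-5p replicate 2. Upper-quartile scaling lost the mir1301-3p call as well, with a log2 difference of -0.64 and an edgeR adjusted p of 0.161. Among the 5 miRNAs other than mir1271-5p, PAPSS2 differed with an edgeR adjusted p of 0.00307. With mir124-3p it lay in the middle of the range, at 43.0 CPM in Solid and 30.4, 39.1 and 31.4 CPM in Illumina.

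PAPSS1, the more widely expressed synthase, was highest with mir124-3p. It read 42.6 CPM in the Solid library and 36.9, 38.2 and 37.0 CPM in the 3 Illumina libraries. In the 12 libraries of the other miRNAs it lay between 8.08 and 25.0 CPM: 17.4 and 13.2 with mir1180-3p, 13.8 and 16.9 with mir1260a-5p, 25.0 and 14.6 with mir1271-5p, 13.9 and 10.7 with mir1301-3p, 8.08 and 14.4 with mir3613-5p, and 11.6 and 21.1 with mir550-3p. All 4 mir124-3p libraries lay above all 12 others. In the Solid library alone, 21.0% of all genes lay above all 12. The Solid library, taken to vary like the other groups, was higher by a log2 difference of 1.40 ± 0.415 (SE, edgeR adjusted p = 0.0418). This call was near the threshold and was lost without mir1260a-5p replicate 1 (0.0526), mir1301-3p replicate 2 (0.0501), mir3613-5p replicate 1 (0.0562) or mir550-3p replicate 1 (0.0666), with mir1180-3p or mir1301-3p out of the reference (0.0502 and 0.0596), and with upper-quartile scaling (0.0793). With mir1180-3p, mir1260a-5p, mir1301-3p, mir3613-5p and mir550-3p PAPSS1 was not called.

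The Golgi carriers of PAPS, SLC35B2 and SLC35B3, followed different miRNAs. SLC35B2 read 74.5 and 87.9 CPM with mir1271-5p. It read 24.3 and 24.6 CPM with mir1180-3p, 25.6 and 37.6 with mir1260a-5p, 23.2 and 34.0 with mir1301-3p, 50.3 and 36.0 with mir3613-5p, and 22.9 and 21.4 with mir550-3p. Both mir1271-5p libraries lay above the other 10, as for 1.82% of all genes. The mean was 81.2 ± 9.50 CPM (SD, n = 2) against 29.98 ± 9.27 (SD, n = 10), with a fitted log2 difference of 1.52 ± 0.271 (SE). Both mir550-3p libraries lay below the other 10, as for 2.53% of all genes, but SLC35B2 was not called there (log2 difference -0.82, edgeR adjusted p = 0.220). In the mir124-3p libraries it read 37.6 CPM in Solid and 40.9, 25.9 and 44.1 CPM in Illumina, the lowest of these being Illumina replicate 2.

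SLC35B3 was highest with mir550-3p, at 204 and 306 CPM. It read 119 CPM in both mir1180-3p libraries, 135 and 89.3 with mir1260a-5p, 203 and 111 with mir1271-5p, 107 and 86.4 with mir1301-3p, and 156 and 108 with mir3613-5p. Both mir550-3p libraries lay above the other 10, as for 5.19% of all genes, though the lower of them was barely above mir1271-5p replicate 1. The log2 difference of 1.02 ± 0.274 (SE) missed the threshold in edgeR (adjusted p = 0.0717), and was called with the mir1271-5p libraries out of the reference (1.12, adjusted p = 0.0448), without mir1271-5p replicate 1 alone (1.13, 0.0231) and in DESeq2 (1.05, 0.0213). SLC35B3 was lowest with mir124-3p, at 68.3 CPM in Solid and 56.8, 57.5 and 54.95 CPM in Illumina, below each of the 12 other libraries. The log2 difference of the Solid library was -1.13 ± 0.444 (SE, edgeR adjusted p = 0.125), it was called lower with upper-quartile scaling (-1.30, adjusted p = 0.0488), and 11.0% of all genes lay below all 12 libraries there.

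**Figure D2:**
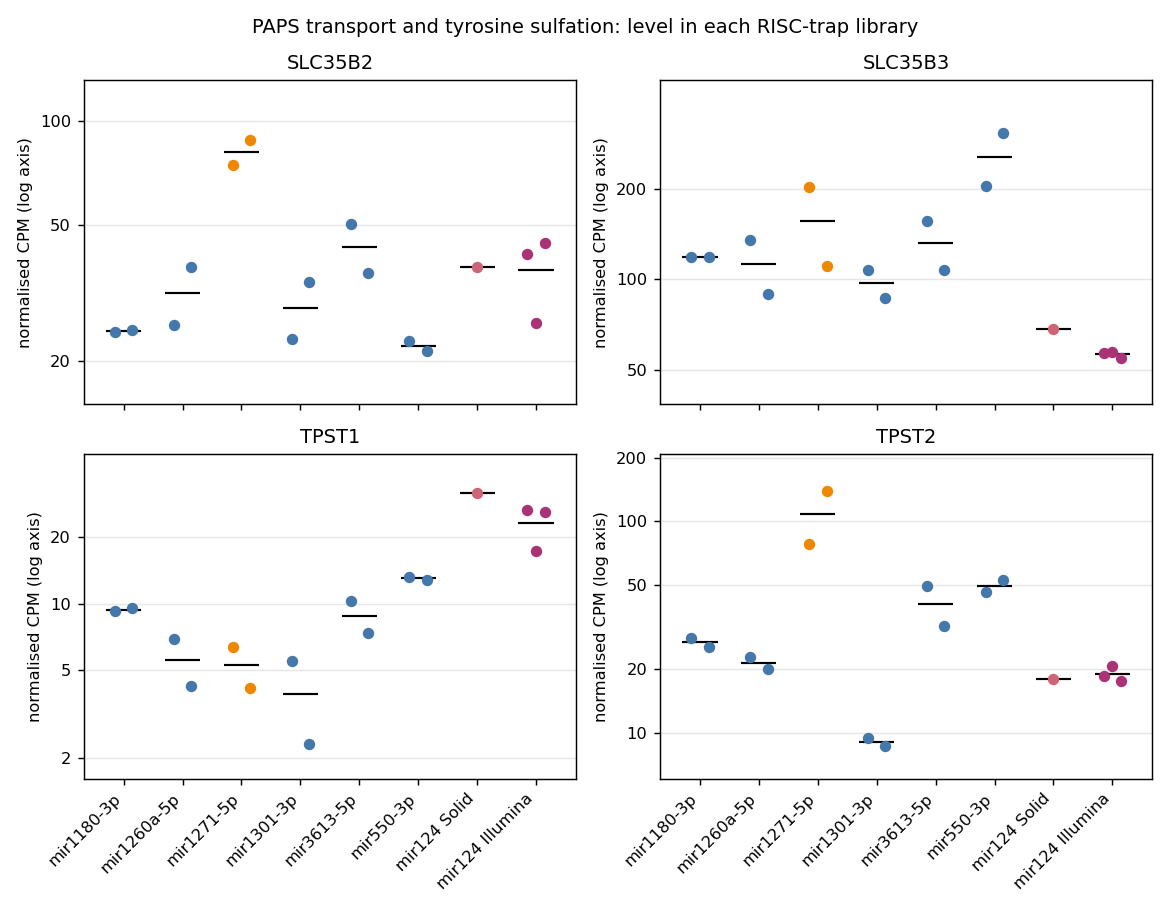
Level of SLC35B2, SLC35B3, TPST1 and TPST2 in each RISC-trap library, in normalised CPM on log axes that differ between panels. Each point is 1 library and each bar the mean of a group. TPST2 and SLC35B2 are highest with mir1271-5p, SLC35B3 with mir550-3p and TPST1 with mir124-3p, and TPST2 is lowest with mir1301-3p, at 9.53 and 8.73 CPM.

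TPST2, a tyrosylprotein sulfotransferase of the trans-Golgi, varied most with the miRNA after BPNT1 among the 8 genes, the highest of the 12 libraries being 15.9 times the lowest. It read 78.6 and 138 CPM with mir1271-5p, 9.53 and 8.73 with mir1301-3p, 28.3 and 25.7 with mir1180-3p, 22.9 and 20.2 with mir1260a-5p, 49.4 and 32.0 with mir3613-5p, and 46.2 and 52.7 with mir550-3p. The mir1271-5p libraries lay above the other 10, as for 1.82% of all genes, and the mir1301-3p libraries below the other 10, as for 7.62%. For mir1271-5p the mean was 109 ± 42.4 CPM (SD, n = 2) against 29.6 ± 15.6 (SD, n = 10), and the fitted log2 difference was 2.13 ± 0.258 (SE). As for BPNT1, mir1271-5p replicate 2 was the higher, by 1.76-fold, and the log2 difference was 2.46 without replicate 1 and 1.72 without replicate 2.

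TPST2 fell with mir1301-3p, to 9.13 ± 0.565 CPM (SD, n = 2) against 49.4 ± 36.0 (SD, n = 10), a log2 difference of -2.18 ± 0.355 (SE, edgeR adjusted p = 0.00258). It was -1.82 with the mir1271-5p libraries out of the reference (adjusted p = 0.00902) and -2.36 with the mir1180-3p libraries out of it (0.00166). With mir1301-3p replicate 1 left out the log2 difference was -2.18 and the adjusted p 0.0558, and with replicate 2 left out they were -2.19 and 0.0506. Both libraries lay below the other 10, as for 7.62% of all genes. TPST2 and PAPSS2 were the members called with mir1301-3p, 2 lower and 0 higher, where 4.39% of all genes were called lower and 11.5% higher. With mir550-3p, TPST2 was called higher only when the mir1271-5p libraries were out of the reference (log2 difference 1.16, adjusted p = 0.0381, against 0.69 and 0.233 with them). The mir124-3p libraries read 18.1 CPM in Solid and 18.6, 20.7 and 17.7 CPM in Illumina.

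TPST1, the other tyrosylprotein sulfotransferase, was highest with mir124-3p. It read 31.8 CPM in Solid and 26.5, 17.4 and 26.1 CPM in Illumina, all 4 above the 12 libraries of the other miRNAs. Those read 9.26 and 9.56 CPM with mir1180-3p, 6.93 and 4.24 with mir1260a-5p, 6.38 and 4.16 with mir1271-5p, 5.54 and 2.32 with mir1301-3p, 10.3 and 7.40 with mir3613-5p, and 13.2 and 12.9 with mir550-3p. The Solid library was higher by a log2 difference of 2.04 ± 0.425 (SE, edgeR adjusted p = 0.0055), and stayed called when any 1 of the 12 libraries was left out, between 1.97 and 2.15. TPST1 and PAPSS1 were the 2 of 8 called with mir124 Solid, both higher, where 7.31% of all genes were called higher, and a value above all 12 libraries was seen for 21.0% of all genes. TNRC6A was also high in these libraries except Illumina replicate 2, where TPST1 was the lowest of the 4, and its part in the result was not tested. With mir550-3p, TPST1 lay above the other 10 libraries, as for 5.19% of all genes, but was not called (log2 difference 1.02, edgeR adjusted p = 0.176).

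**Figure D3:**
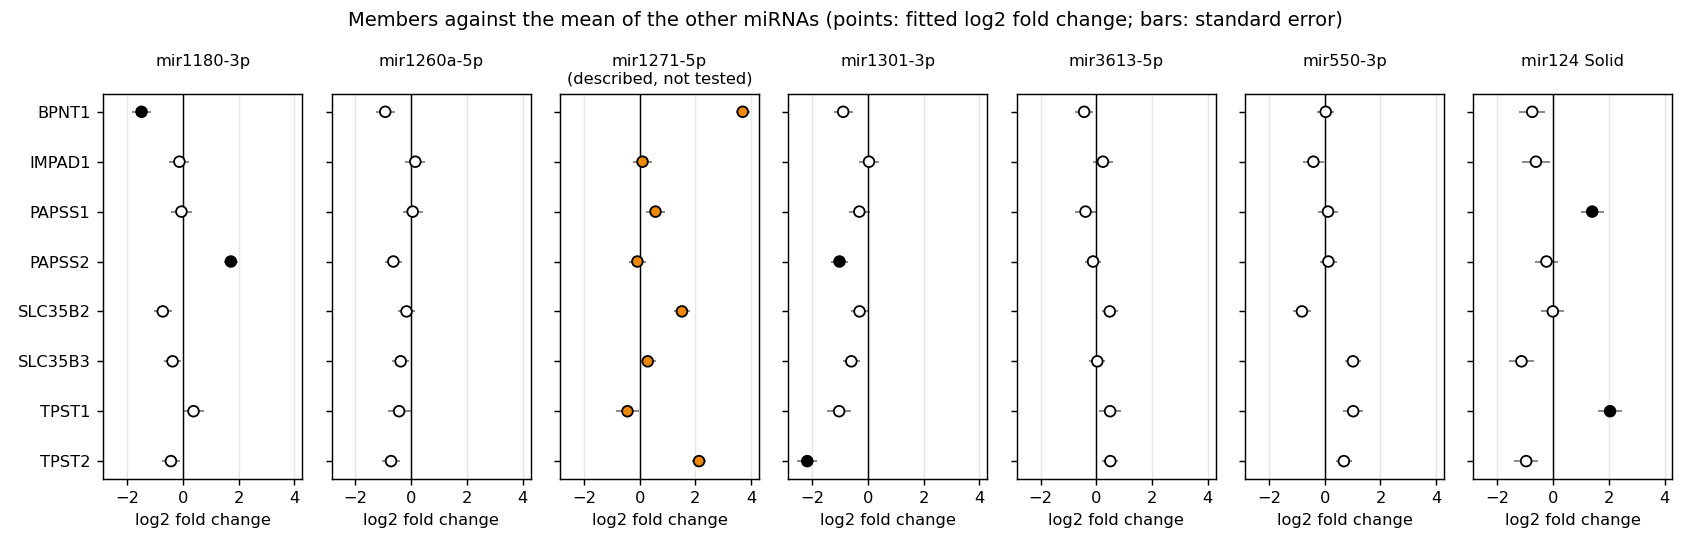
Fitted log2 differences of the 8 genes, with standard errors as bars, for each miRNA against the mean of the others. Filled points are past an edgeR adjusted p of 0.05, except for mir1271-5p, whose 8 values are coloured alike and are a description only. BPNT1, TPST2 and SLC35B2 lie at 3.70, 2.13 and 1.52 with mir1271-5p, PAPSS2 at 1.72 with mir1180-3p, and TPST2 at -2.18 with mir1301-3p.

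The 8 genes were also read together for each miRNA. With mir1271-5p, 3 of 8 genes were past the threshold, all higher, where 0.606% of all genes were. The genes were chosen with this comparison known, so the count is a description and not a test. It cannot show whether genes of sulfation rose more often than other genes. The 3 genes act at the removal of PAP (BPNT1), the transport of PAPS (SLC35B2) and its use on tyrosine (TPST2). The other member of each pair did not do the same: the fitted log2 differences were 0.11 for IMPAD1, 0.29 for SLC35B3 and -0.43 for TPST1. The median over the 8 genes was 0.43 against 0.053 over all genes tested.

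With mir1260a-5p none of the 8 genes was called by edgeR or by DESeq2, 2 of them (BPNT1 and TPST2) had an unadjusted p under 0.05, and 0.215% of all genes were called. With the mir1271-5p libraries out of the reference, the log2 difference there moved from -0.93 to -0.20 for BPNT1 and from -0.72 to -0.31 for TPST2. With mir3613-5p none was called by edgeR or by DESeq2, none had an unadjusted p under 0.05, and 0.0906% of all genes were called. With mir550-3p none was called by edgeR, 1 (SLC35B3) by DESeq2, 4 had an unadjusted p under 0.05, and 1.51% of all genes were called. Over the 5 miRNAs other than mir1271-5p, 2 of 8 genes differed, PAPSS2 and TPST2 (edgeR adjusted p = 0.00307 and 0.0074), where 10.1% of all genes did. SLC35B3 was near the threshold in that test (adjusted p = 0.0530), and PAPSS1, IMPAD1 and SLC35B2 had adjusted p-values of 0.785, 0.880 and 0.259.

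**Figure D4:**
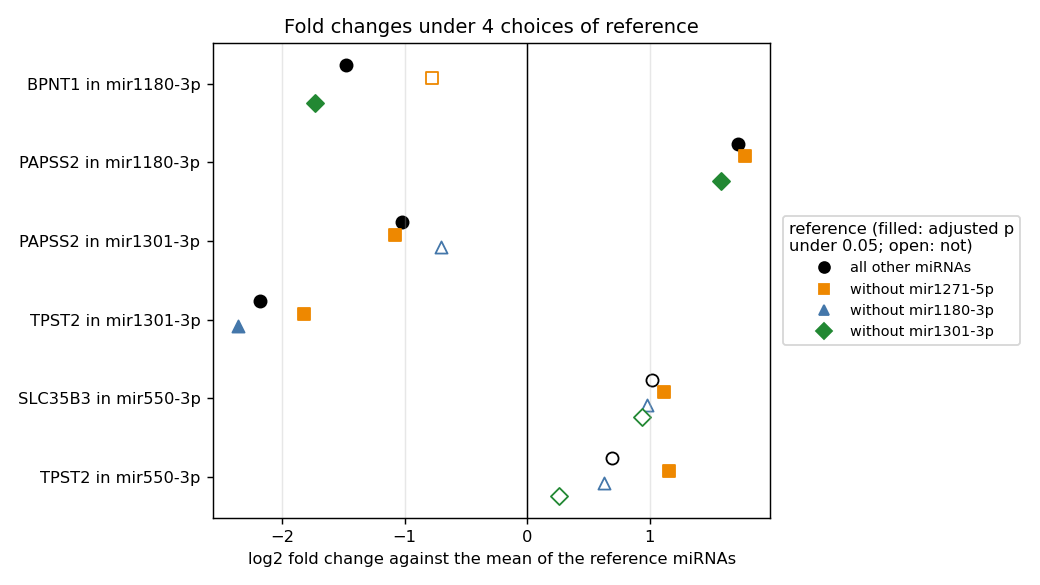
Fitted log2 differences of 6 pairings of gene and miRNA, against all other miRNAs and with each of 3 miRNAs taken out of the reference in turn. Filled symbols are past an edgeR adjusted p of 0.05 and open symbols are not. BPNT1 with mir1180-3p moves from -1.48 to -0.77 without mir1271-5p, and PAPSS2 with mir1301-3p from -1.02 to -0.70 without mir1180-3p.

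For mir124-3p, the 8 genes did not differ detectably between platforms. None was called between the Illumina libraries and the Solid library by edgeR or by DESeq2, and none had an unadjusted p under 0.05, where 21.9% of all genes were called. The fitted log2 differences, Illumina less Solid, ran from -0.44 ± 0.496 (SE) for TPST1 to 0.08 ± 0.403 for TPST2, and that of PAPSS1 was -0.18 ± 0.455. The median over all genes was -0.393. Less that median, TPST1 lay at -0.0454, PAPSS1 at 0.212 and TPST2 at 0.473. In simulated data, with changed genes at a mean of at least 5 CPM, this comparison recovered 33% of those changed 4-fold. It recovered 0% of those changed 2-fold, so differences of these sizes could be missed.

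The other genes of sulfation were looked at by list. Of 35 sulfotransferases that act on sugars in the Golgi, 1 rose with mir124 Solid: CHST14, which sulfates dermatan sulfate. It read 53.9 CPM in Solid and 67.8, 49.2 and 68.0 CPM in Illumina, against 7.09 ± 1.80 CPM (SD, n = 12) with the other miRNAs, a log2 difference of 2.82 ± 0.390 (SE, edgeR adjusted p = 0.000228). Of 19 sulfatases and their activators 1 rose there too, IDS, the lysosomal enzyme that takes sulfate from heparan and dermatan sulfate. IDS read 494 CPM in Solid and 469, 623 and 457 CPM in Illumina, against 144 ± 21.7 CPM (SD, n = 12), with a log2 difference of 1.66 ± 0.307 (SE, edgeR adjusted p = 0.00248). Of 10 sulfate transporters 1 rose, SLC26A6, an anion exchanger, from 6.49 ± 3.44 CPM (SD, n = 12) to 29.2 in Solid, with 26.8, 18.1 and 31.1 CPM in Illumina and a log2 difference of 2.12 ± 0.499 (SE, edgeR adjusted p = 0.0128). None of these 3 calls was lost when any 1 of the 12 libraries was left out. The list medians were -0.149, -0.0490 and -0.463, beside -0.121 for all genes. None of 12 cytosolic sulfotransferases, 5 related phosphatases or 18 tyrosine-sulfated proteins tested was called with mir124 Solid, and 7.31% of all genes were called higher there.

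With mir1180-3p, where PAPSS2 rose, 1 of 19 sulfatases rose as well: ARSB, which removes sulfate from dermatan and chondroitin sulfate. It read 33.9 and 30.5 CPM against 8.52 ± 2.22 CPM (SD, n = 10), a log2 difference of 1.81 ± 0.326 (SE, edgeR adjusted p = 0.00368), lost without mir1180-3p replicate 1 (adjusted p = 0.122) or replicate 2 (0.0519). FBP2, 1 of 5 phosphatases related to BPNT1, and SERPIND1, 1 of 18 tyrosine-sulfated proteins tested, were also called higher, at mean levels of 1.68 and 4.04 CPM. SERPIND1 rested on mir1180-3p replicate 2, at 6.75 CPM against 1.34 in replicate 1. None of the 35 Golgi sulfotransferases, 11 cytosolic sulfotransferases tested or 10 sulfate transporters was called there, where 1.92% of all genes were called higher. With mir1271-5p, CHST10, a Golgi sulfotransferase that makes the HNK-1 carbohydrate, read 43.8 and 48.5 CPM against 16.2 ± 7.54 CPM (SD, n = 10). Its fitted log2 difference was 1.67 ± 0.320 (SE), given as a description.

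With mir1301-3p, 14 genes of these lists were called higher, where 11.5% of all genes were called higher. Each of the 11 of them named here had a mean under 4 CPM. The 14 were 4 of 11 cytosolic sulfotransferases (SULT1C3, SULT1C4 and SULT1E1 among them), 2 of 35 Golgi sulfotransferases (CHST5 and HS3ST2), 2 of 19 sulfatases (ARSI and ARSE), 1 of 10 sulfate transporters (SLC13A1) and 5 of 18 tyrosine-sulfated proteins, LUM, CCK and CCR2 among them. The share was above 11.5% for the cytosolic sulfotransferases and the tyrosine-sulfated proteins. It was below 11.5% for the Golgi sulfotransferases and near it for the sulfatases and sulfate transporters. In the order given, the list medians were 0.0304, 0.417, 0.0646, 0.780 and 1.07, beside -0.0174 for all genes. The lists were not tested as sets. Over all genes, calls with mir1301-3p fell from 2815 to 114 without its replicate 1 and 142 without its replicate 2. The 8 fibroblast markers, LUM among them, summed to between 66.3 and 161 CPM in the mir1301-3p libraries and between 14.8 and 31.3 CPM in the other 10, and 6 of the 8 were called higher. The 9 HEK 293 markers summed to between 1011 and 1267 CPM in the mir1301-3p libraries and between 1177 and 2043 CPM in the other 10. Of other markers tested, 2 of 6 for blood, 1 of 7 for neurons and glia and 0 of 4 for liver were called higher. The part of these markers in the results was not tested.

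Over the 12 libraries, the genes whose level was most like that of BPNT1, among 11465 with a mean of at least 5 CPM, were REV1, C11orf68, SH3BP5, SIK3 and BRPF3, with Pearson correlations of log2 CPM of 0.955, 0.939, 0.933, 0.925 and 0.909. Their means with mir1271-5p were 174, 113, 117, 68.6 and 60.6 CPM, beside 58.6, 15.9, 42.3, 28.3 and 20.5 CPM in the other 10 libraries. REV1 is a polymerase that bypasses DNA damage and SIK3 a kinase related to AMPK. The likeness rests on the 2 mir1271-5p libraries, since over the other 10 the correlations were 0.694, 0.300, 0.695, 0.365 and 0.140. Within the 8 genes, BPNT1 was most like SLC35B2 (0.790) and TPST2 (0.774) over the 12 libraries, and over the other 10 these were -0.102 and 0.487. TPST1 and TPST2 had a correlation of 0.374 over the 12 libraries and 0.871 over the 10, the highest there among the 8 genes. For TPST1 and SLC35B3 it was 0.726 over the 12 and 0.792 over the 10, and for TPST2 and SLC35B3 0.536 and 0.758. The libraries share their preparation and their scaling, and no test was made of these correlations.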

How the data were processed

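The authors deposited raw counts per gene in 1 table. TopHat2 and the build hg19 are named in the submitters' processing notes, with no version; how reads were counted, strand handling and annotation are not given in the sources used. Groups follow the miRNA in each title. Counts were tested in R 4.3.3 with edgeR 4.0.16 (filterByExpr, TMM scaling, two-sided quasi-likelihood F tests with robust fitting), and p-values were adjusted by Benjamini-Hochberg over all genes of a comparison, called under 0.05. Each of the 6 miRNAs was set against the other 5 over 12 libraries, and mir124 Solid against all 6. CPM used TMM factors over all 16 libraries, and log2 CPM a prior count of 2. Alternatives were DESeq2 1.42.0, upper-quartile scaling, no filter, a replicate block, all 16 libraries in 1 fit, other references and leaving out each library. In simulated data 96% of genes changed 4-fold and 31% changed 2-fold were recovered for mir1180-3p, and 72% and 8% for mir124 Solid. The changed genes were drawn from those with a mean of at least 5 CPM, so recovery at lower levels was not measured. Limits behind a count of 0 cover counting error only. The members and gene lists were chosen with earlier results of these data known. From each list up to 3 called genes per comparison were named, in order of p, and the 5 genes most like BPNT1; for the platform comparison, whose named list genes lay at or near 0 with Illumina, none was named. A gene that the rule would name with mir1301-3p is not reported here.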

Additional observations from a re-analysis of the deposited data

How the results depend on the processing

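The counts of members called with mir1260a-5p, with mir3613-5p and between platforms were 0 under every alternative run, 0 to 0 when libraries were left out. With mir1180-3p the count of 2 became 1 with upper-quartile scaling and 1 with mir1271-5p out of the reference, and ran from 1 to 2 with libraries left out. With mir1301-3p the count of 2 became 1 with upper-quartile scaling and 3 in DESeq2, which added BPNT1, and ran from 0 to 2; with mir1180-3p out of the reference it stayed 2, with BPNT1 in place of PAPSS2. With mir550-3p the count of 0 became 1 in DESeq2, 1 in a fit of all 16 libraries and 2 with mir1271-5p out of the reference, and ran from 0 to 1. With mir124 Solid the count of 2 became 1 with mir1180-3p or with mir1301-3p out of the reference, and ran from 1 to 2. Among 5 miRNAs the count of 2 became 4 in DESeq2 and ran from 2 to 3. The BPNT1 log2 difference with mir1271-5p ran from 3.29 to 4.03. With mir124 Solid, upper-quartile scaling kept the count of 2 with SLC35B3 lower in place of PAPSS1. No called log2 difference changed sign; some that were not called did, such as BPNT1 with mir3613-5p, from -0.44 to 0.32 with mir1271-5p out of the reference, as did PAPSS2 with mir1271-5p, not tested, from -0.08 to 0.28 with mir1180-3p out of it. The causes were not tested. The references without mir1180-3p and without mir1301-3p were chosen after seeing the data.

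Upper-quartile scaling moved the median of all genes by 0.396 with mir1301-3p, -0.240 with mir1271-5p, -0.192 with mir3613-5p, -0.183 with mir124 Solid, 0.162 with mir1180-3p and -0.121 with mir550-3p. Less that median, PAPSS2 lay at -1.02 and TPST2 at -2.16 with mir1301-3p, and PAPSS1 at 1.53 with mir124 Solid. Over all genes, calls with mir1180-3p were 366 in edgeR, 693 in DESeq2 and 675 with all 16 libraries; with mir1260a-5p 38, 72 and 64; with mir1301-3p 2815 and 4438 with upper-quartile scaling; with mir3613-5p 16, 142 and 27; with mir550-3p 266, 880 and 808; among 5 miRNAs 1781, 3893 in DESeq2 and 3042 with upper-quartile scaling; and with mir124 Solid 1613, 2678 and 2847. For mir1271-5p they were 107, 163 in DESeq2 and 50 with upper-quartile scaling, and for mir3613-5p 9 with that scaling. With 1 library left out they ran from 170 to 438 with mir1180-3p, 19 to 50 with mir1260a-5p, 35 to 174 with mir1271-5p, 114 to 4509 with mir1301-3p, 8 to 39 with mir3613-5p, 9 to 616 with mir550-3p and 462 to 2295 among 5 miRNAs. With mir1271-5p out of the reference they were 1836 with mir1301-3p and 426 with mir550-3p, and with mir1301-3p out of it 117 with mir550-3p.

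Deviations of same-numbered replicates from their group means had r from -0.140 to 0.361 over 15 pairs of miRNAs, 6 over 0.1. Some pairs of miRNAs thus deviated together in part, and whether the numbers pair the libraries was not tested. With a replicate block 1 member was called with mir550-3p, SLC35B3 (log2 difference 1.06, edgeR adjusted p = 0.0482). Calls over all genes went from 366 to 408 with mir1180-3p and from 2815 to 3738 with mir1301-3p. The counts of members in the other comparisons were as without the block.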
